A study of Mus musculus with 60 samples.

Results

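The Hox genes are transcription factor genes that share a homeobox, the stretch coding for the DNA-binding homeodomain, and lie in clusters named Hoxa to Hoxd on chromosomes 6, 11, 15 and 2 of the mouse. The members described here are the protein-coding genes whose symbol is Hoxa, Hoxb, Hoxc or Hoxd followed by digits alone. The annotation holds 39 of them, and the expression table of 27238 genes holds 34, namely 9 of 11 in the Hoxa cluster, 10 of 10 in Hoxb, 8 of 9 in Hoxc and 7 of 9 in Hoxd. Hoxa3, Hoxa11, Hoxc12, Hoxd3 and Hoxd4 were not analysed here. Of the 34, 33 had a value above 0 in at least 1 library, 30 had one in at least 1 embryo library, and Hoxa6 was listed at 0 throughout.

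In the embryo, Hox genes are switched on in the order in which they lie along the cluster, and their products give cells their position along the body axis and in the limbs. Polycomb proteins keep the clusters silent where they are not used, Trithorax/MLL proteins keep them active, and homeodomain partners of the Pbx, Meis and Pknox families bind DNA together with many Hox proteins. Fibroblasts keep a Hox pattern that depends on their place of origin in the body, whereas Hox transcription as a body-axis program begins only after implantation, later than any stage sampled here.

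RNA-seq was run on 60 libraries of BDF1 (C57BL/6 × DBA2) mouse material in 20 groups of 3. In vivo embryos came from C57BL/6 females mated with DBA2 males. NTC embryos were made by transfer of a cumulus cell nucleus and NTM embryos by transfer of a mouse embryonic fibroblast nucleus. Both kinds of nucleus went into enucleated oocytes of superovulated BDF1 females. Each type was collected at 6 stages, from the 1-cell embryo through 3 cleavage stages to the morula and the stage labelled blastula. The donor cells themselves were sequenced as well, as cumulus cells (CC) of superovulated females, which surround the ovulated egg, and as fibroblasts (MEF) grown from fetuses, passaged and serum-starved. All reconstructed embryos were activated with strontium and cytochalasin B, treated with the histone deacetylase inhibitor Scriptaid and grown in culture. In vivo embryos were collected from the mated females. Reconstructed and in vivo embryos thus differed in egg strain and culture too, which cannot be told apart from transfer. Embryos were picked by morphology, and an embryo library was made from 1 embryo, so that an embryo is followed through no further stage. The labels do not say how many cells went into a donor library or whether the 3 libraries of a group came from separate matings, cultures or transfer sessions, so p-values measure only the spread between these libraries.

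Levels are given as RPKM, reads scaled to exon length and to the mapped reads of the library, which are comparable between genes as levels per length. The read total to which each library was scaled was recovered from the table. It came to 5294167 to 26281508 per embryo library (median 14718210) and at least 31558140 per donor library. Thus 3 reads of a Hox gene stood for 0.0205 to 0.648 RPKM in the embryos and 0.0112 to 0.109 RPKM in the donor cells. These floors cover counting error only, since the libraries were amplified without molecular identifiers. A summed list of 15 fibroblast markers stood at 9336 to 11970 RPKM in MEF, 74.5 to 163.5 in CC and at most 22.3 in any embryo library. A list of 15 cumulus markers stood at 712 to 1493 RPKM in CC and 532 to 1255 in MEF, with 11 and 7 of its genes at a mean of 1 or more, so it did not separate the donor types well. A list of 10 oocyte markers stood at 3003 RPKM or more in every 1-cell and 2-cell library and at 77.9 to 501 at the 4-cell stage.

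Of 561 pairs of members' transcripts, 2 shared a run of 50 identical bases (Hoxa6 with Hoxb4 and Hoxb9 with Hoxc9) and 0 shared a run of 100. Exons can also overlap on the genome. Hoxc5 and Hoxc10 share exon bases on the same strand, 5.37% and 8.7% of their exons, and reads there cannot be assigned to either. An antisense gene, Hoxaas3, covers 20.4% of the exon bases of Hoxa7 and Hoxb3os covers 52.9% of those of Hoxb3. Strandedness is not given in the sources used here, so reads in these stretches cannot be assigned to a strand.

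The upstream sequences of 4 members that stood at the top in different groups are shown next, since these genes moved in different samples: Hoxa7 led in the first embryo stages, Hoxd13 was read in early embryos and in no donor library, Hoxd8 was the top member in CC and Hoxa10 in MEF. The sequences are taken from the RefSeq windows before each start on GRCm38.p6, leaving out bases inside annotated exons, and capitals mark matches on either strand to the TATA motif TATAAA, to the CCAAT box, to the GC box motif GGGCGG, to the caudal-type motif TTTATG or to TGATNNAT, a motif of Pbx and Hox proteins bound together, where neighbouring matches may overlap.
Hoxa7, chr6:52218712-52218823, minus strand: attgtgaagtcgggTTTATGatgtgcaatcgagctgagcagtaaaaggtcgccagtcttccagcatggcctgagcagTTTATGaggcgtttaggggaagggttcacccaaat
Hoxd13, chr2:74667975-74668224, plus strand: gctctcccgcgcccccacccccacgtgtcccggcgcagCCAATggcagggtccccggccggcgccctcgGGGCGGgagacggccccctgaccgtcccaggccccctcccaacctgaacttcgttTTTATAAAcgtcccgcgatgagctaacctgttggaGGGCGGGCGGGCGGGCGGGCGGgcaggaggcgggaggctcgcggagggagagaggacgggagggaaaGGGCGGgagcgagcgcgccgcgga
Hoxd8, chr2:74704365-74704614, plus strand: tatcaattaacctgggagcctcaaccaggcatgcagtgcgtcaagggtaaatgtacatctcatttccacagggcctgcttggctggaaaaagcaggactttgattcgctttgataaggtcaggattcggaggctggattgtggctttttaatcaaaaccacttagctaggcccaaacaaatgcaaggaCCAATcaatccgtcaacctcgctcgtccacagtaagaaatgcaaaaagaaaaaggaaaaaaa
Hoxa10, chr6:52234940-52235189, minus strand: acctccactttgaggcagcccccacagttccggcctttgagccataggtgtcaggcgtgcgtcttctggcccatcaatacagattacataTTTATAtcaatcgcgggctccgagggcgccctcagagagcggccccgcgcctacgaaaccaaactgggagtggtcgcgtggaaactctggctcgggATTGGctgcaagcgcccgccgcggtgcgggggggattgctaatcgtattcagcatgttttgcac

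These windows differed in base composition. The Hoxa7 window of 112 bases held 4 CpG and 49.1% G and C. It ran only from 250 to 139 bases before the RefSeq start, so the bases nearest the start are missing. The other windows ran up to the start. The Hoxd13 window of 250 bases held 31 CpG and 74.4%, the Hoxd8 window 6 CpG and 44.4%, and the Hoxa10 window 20 CpG and 59.2%. The Hoxa7 and Hoxa10 windows lay within the GENCODE span of their genes. RefSeq windows were found for 18 of the 34 members (20 windows, some genes having more than 1 start), with a median of 12.5 CpG against 6 over all 32851 windows of the same length. Of the member windows, 12 held CCAAT, 10 held GGGCGG, 4 held TGATNNAT, 3 held TATAAA and 3 held TTTATG, against 33.8%, 32.7%, 7.68%, 12.4% and 10.8% of all windows. A match is a description of the letters and not a binding site.

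Hox transcripts were found in fibroblasts, at lower and uneven levels in cumulus cells, and in 1-cell and 2-cell embryos of every type, where Hoxa7 had the highest mean of the members in each group. The 34 members summed to 104.3, 144.6 and 32.8 RPKM in the 3 MEF libraries and to 0.0988, 9.50 and 17.6 RPKM in the 3 CC libraries. In the 18 libraries of 1-cell and 2-cell embryos the sum ran from 0.614 to 57.1 RPKM (median 31.5), and in the 36 libraries of later embryos from 0 to 7.81 RPKM (median 1.10). Early libraries held 129 of 612 possible values above 0 (21.1%) and later ones 98 of 1224 (8.01%), with 4 later libraries holding none. The least was seen in in vivo 8-cell embryos, with 0 to 1 Hox reads per library, and in in vivo blastulae, with 0 to 2.

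**Figure D1:**
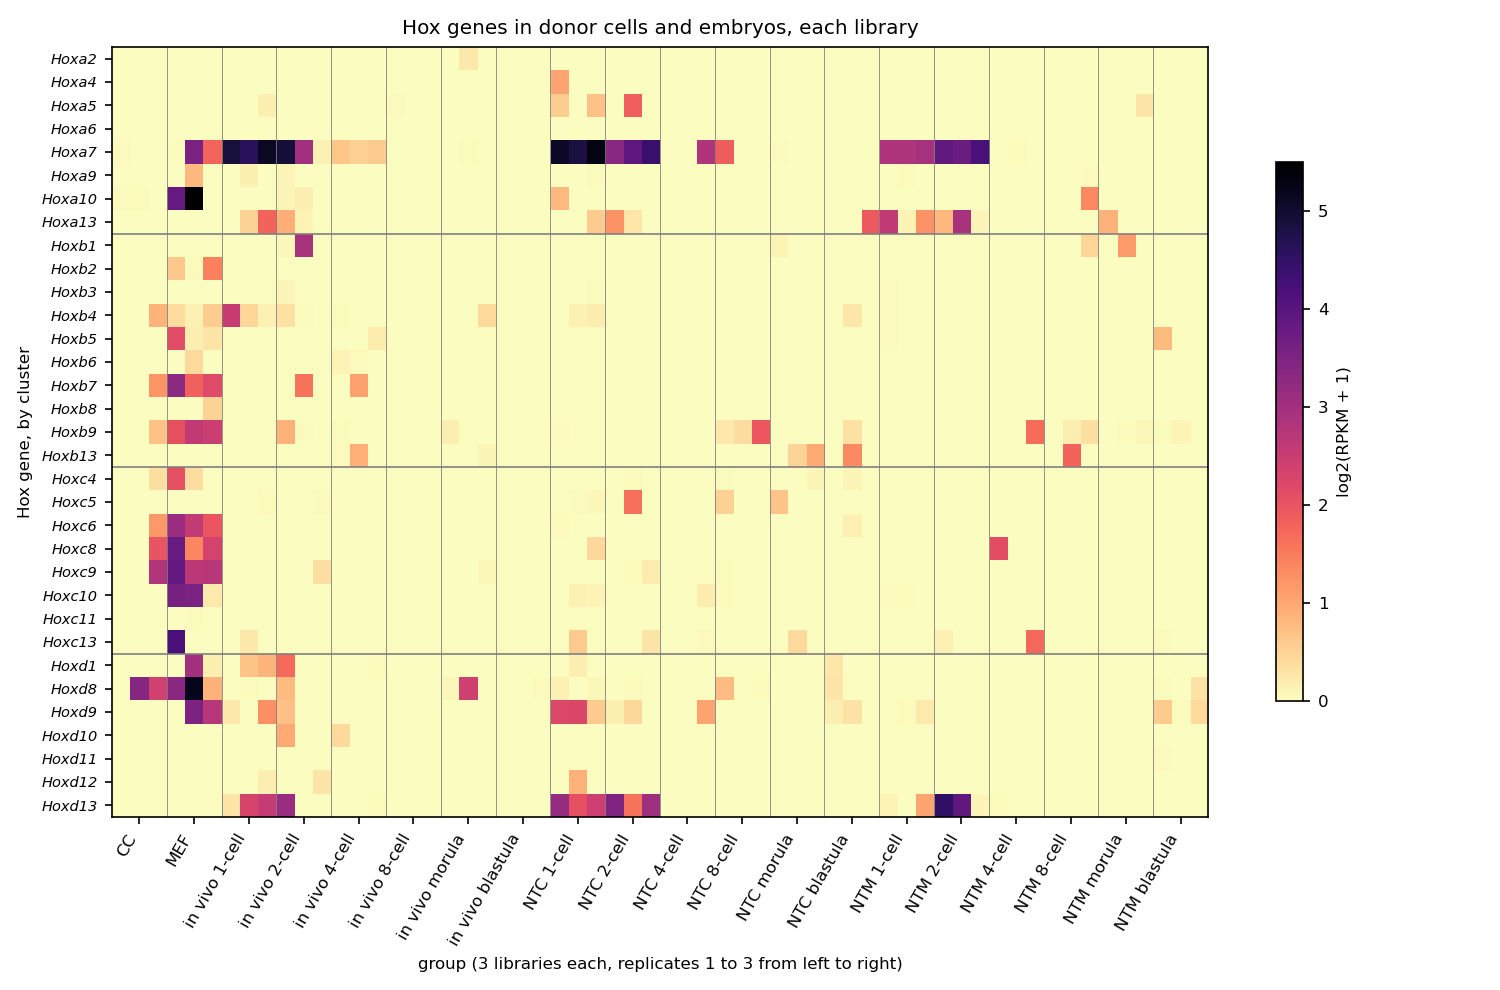
Level of 33 of the 34 Hox genes (rows, by cluster) in each of the 60 libraries (columns, 3 per group), as log2(RPKM + 1) in colour. The dark row of Hoxa7 spans the 1-cell and 2-cell embryos of all types apart from the third in vivo 2-cell library, at 0.105 RPKM. The genes of the Hoxb and Hoxc clusters are dark mainly in MEF.

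**Figure D2:**
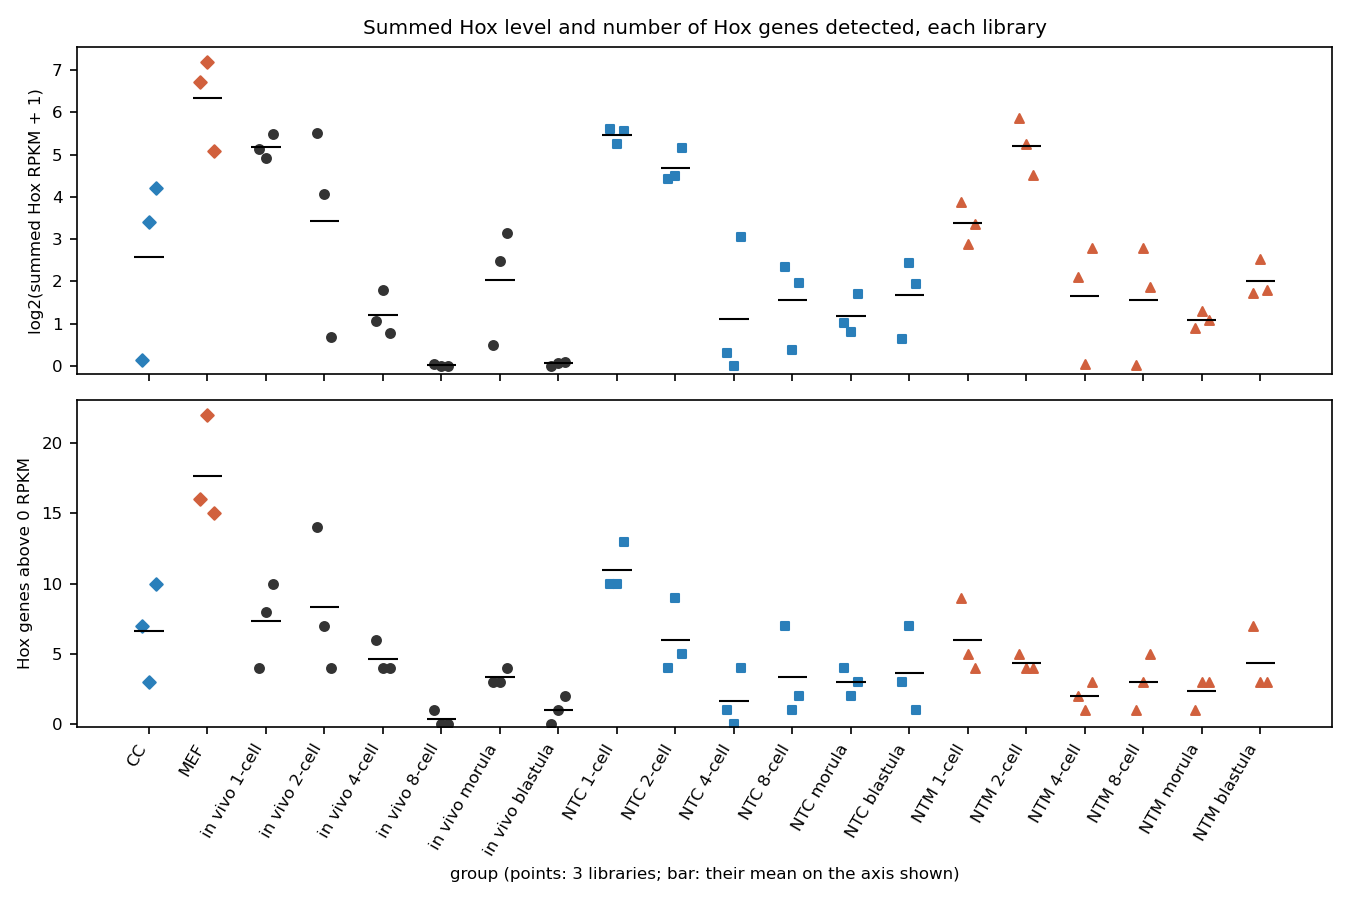
Summed level of the 34 Hox genes as log2(RPKM + 1) (top) and number of them above 0 RPKM (bottom) in each library, with 3 points and their mean per group. MEF libraries hold 15 to 22 of the genes, CC libraries 3 to 10 and later embryos 0 to 7.

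In MEF, 22 members were above 0 in at least 1 library, 13 in all 3, and 15 had a mean of 1 RPKM or more. These 15 were spread over the clusters, with 3 in Hoxa, 3 in Hoxb, 6 in Hoxc and 3 in Hoxd, and over the paralogue groups, with 2 of 6 anterior members (groups 1 to 3), 7 of 14 central ones (4 to 8) and 6 of 14 posterior ones (9 to 13). The libraries were unlike each other, and 5 of the 15 means came to 90% or more from 1 library. Hoxb7, Hoxb9, Hoxc6, Hoxc8 and Hoxc9 were at 1 RPKM or more in all 3.

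Hoxc9, which acts in the thoracic region, stood at 13.5, 5.39 and 5.58 RPKM in MEF and 0.0110, 0 and 5.95 in CC. Hoxc6, a thoracic-level central gene, stood at 7.64, 4.94 and 2.94 RPKM in MEF and 0, 0 and 1.26 in CC. Hoxb9, a posterior gene of the thoracic region, stood at 3.13, 5.05 and 4.61 RPKM in MEF and 0.0104, 0 and 0.616 in CC. For Hoxc6 and Hoxb9 every MEF library lay above every CC library, whereas for Hoxc9 the third CC library lay above 2 of the MEF libraries.

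Hoxb7, the Hoxb paralogue of Hoxa7, stood at 8.82, 2.59 and 3.56 RPKM in MEF and 0, 0 and 1.33 in CC, with no overlap. Hoxc8 stood at 12.8, 1.60 and 4.05 RPKM in MEF and 0, 0.0112 and 2.999 in CC, where the third CC library passed the second MEF library. Hoxc10, a posterior gene of the lumbar region and hindlimb, stood at 11.2, 10.7 and 0.164 RPKM in MEF and was listed at 0 in all CC libraries. The third CC library was the highest for each of Hoxb7, Hoxb9, Hoxc6, Hoxc8 and Hoxc9.

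Hoxa10, a posterior gene known for its part in the uterus and the lumbar region, had the highest MEF mean at 13.1, 44.8 and 0 RPKM, and stood at 0.0246, 0.0290 and 0 in CC. Hoxd8 stood at 9.04, 36.3 and 0.853 RPKM in MEF and 0.00975, 9.46 and 4.26 in CC, so the groups overlapped. Hoxc13, known for its part in hair and nails, stood at 17.5, 0.0110 and 0 RPKM in MEF and at 0 in CC, and rests on 1 library. Hoxd9, a posterior gene of the Hoxd cluster, stood at 0, 10.4 and 5.58 RPKM in MEF and 0, 0 and 0.0148 in CC. The first and second MEF libraries held most of the Hox signal, and the third was at 0 for Hoxa10 and Hoxc13 and below 1 RPKM for Hoxc10 and Hoxd8.

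**Figure D3:**
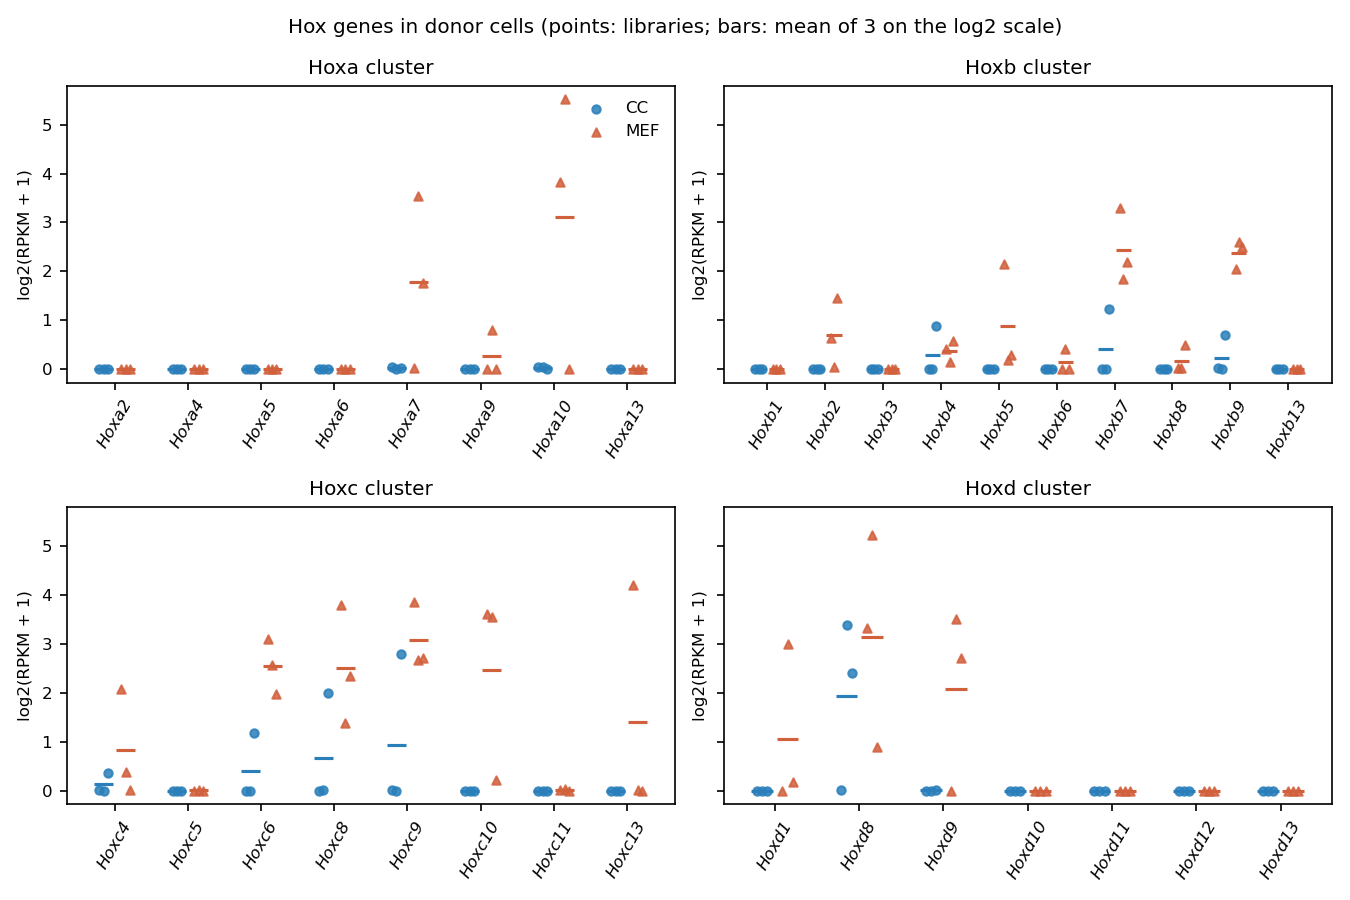
Level of the same 33 Hox genes in the 3 CC and 3 MEF libraries as log2(RPKM + 1), by cluster, with the mean of each group as a bar. MEF means lie at or above CC means for every gene. For Hoxa10, Hoxc10, Hoxc13, Hoxd8 and Hoxd9 the MEF points are widely spread, each with a library below 1 RPKM. The highest point is that of Hoxa10 at 44.8 RPKM.

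Whether the donor types differed was tested with limma on log2(RPKM + 1), where a gene was tested with a mean of at least 0.5 RPKM over the libraries compared and called when its Benjamini-Hochberg adjusted p over all genes was under 0.05 and the groups lay at least 1 log2 unit apart. Over the 34 members the mean was higher in MEF for 22, higher in CC for 0 and at 0 in both for 12. In 7 (Hoxb2, Hoxb5, Hoxb7, Hoxb8, Hoxb9, Hoxc6 and Hoxc10) the lowest MEF library lay above the highest CC library. For Hoxb8 and Hoxb2 that lowest MEF library stood at only 0.00901 and 0.0232 RPKM, with CC at 0. The shares of all genes placed in these ways were not counted, so these counts are no result about the members as a group. Of 15 members tested, 0 were called by limma, against 6.29% of all 11978 genes tested. An unadjusted p under 0.05 was reached by 2192 of the 11978 genes and by 5 of the 15 members. Their log2 fold changes were 2.14 ± 0.68 (SE) for Hoxb9 (limma adjusted p = 0.124), 2.16 ± 0.75 for Hoxc6 (0.159), 2.03 ± 0.77 for Hoxb7 (0.206), 2.46 ± 1.00 for Hoxc10 (0.242) and 3.09 ± 1.30 for Hoxa10 (0.255). The median over the 15 was 1.83 against 0.19 over all genes tested, but 12 of the 15 had a CC mean under 0.5 RPKM and so entered the test through MEF. Without the third MEF library 2 members were called, Hoxa10 and Hoxc10, and in 1 fit over all 20 groups 11 were called. The share of all genes called in those fits was not counted, so these counts are no result about the members as a group. The number of cells behind a donor library is not given, so where it held several, fewer cells using a gene and less RNA per cell cannot be told apart.

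After transfer of a fibroblast nucleus, the members read in fibroblasts were compared with those in the embryo. The 15 members at a mean of 1 RPKM or more in MEF summed to 30.1 to 143.3 RPKM in MEF and to 6.25 to 8.42 RPKM in NTM 1-cell embryos, where Hoxa7 gave 6.07 to 6.70 RPKM. The same 15 summed to 32.7 to 40.1 RPKM in NTC 1-cell embryos, made with another donor type, and to 2.25 to 4.80 RPKM in NTM blastulae. Of the 15, 12 had a mean under 1 RPKM in every 1-cell and 2-cell group, and these summed to 22.1 to 118.7 RPKM in MEF, to at most 4.55 RPKM in NTM 4-cell embryos and to 0.080 to 0.785 RPKM in NTM blastulae. Since the 12 were set apart by their low early levels, their sum at the 1-cell stage is no separate result.

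Between NTM 1-cell embryos and MEF, 16 members were tested and 6 were called lower, Hoxb7, Hoxb9, Hoxc6, Hoxc8, Hoxc9 and Hoxd8, against 29.9% of all genes called lower and 55.2% called in either direction. Calls were common in this comparison and the MEF-expressed members were tested because of their MEF level, so the count of 6 is no result about the members as a group. Hoxc9 was listed at 0 in all 3 NTM 1-cell libraries, at least 99.7-fold lower than in MEF (log2 fold change −3.08 ± 0.41, limma adjusted p = 0.000745). Hoxc6 was at 0 as well, at least 62.6-fold lower (−2.55 ± 0.39, limma adjusted p = 0.00139), as were Hoxb9, at least 55.2-fold lower (−2.38 ± 0.33, limma adjusted p = 0.000882), and Hoxb7, at least 38.7-fold lower (−2.44 ± 0.45, limma adjusted p = 0.00345). For these 4 genes and Hoxc8 (at least 87.8-fold lower, −2.50 ± 0.62, limma adjusted p = 0.0122) the groups did not overlap. These bounds set the MEF mean against the RPKM of 3 reads, averaged over the 3 embryo libraries. The comparison sets whole fibroblasts against oocytes that received a nucleus, with oocyte markers at 6016 to 6703 RPKM and fibroblast markers at no more than 3.09 RPKM. The folds therefore do not show whether a gene was switched off after transfer.

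Hoxd8 was at 0 in NTM 1-cell embryos, at least 212-fold below the MEF mean, while 1 MEF library stood at only 0.853 RPKM. Its log2 fold change was −3.15 ± 1.01 (limma adjusted p = 0.0338), a call lost without MEF replicate 1 or 2, any NTM 1-cell library or the filter. Hoxc10 (−2.42 ± 0.91, limma adjusted p = 0.0597) and Hoxa10 (−3.11 ± 1.29, limma adjusted p = 0.0794) were not called, and both had a MEF library near or at 0. Hoxa7 stood higher in NTM 1-cell embryos by 1.09 ± 0.83 (limma adjusted p = 0.296). The median log2 fold change over the 16 was −2.18 against −0.53 over all genes, with the same limit.

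In NTM blastulae the same 6 genes were called lower than in MEF, of 15 tested, against 19.8% of all genes called lower and 30.8% in either direction. This comparison shares its MEF libraries with the one at the 1-cell stage. Hoxc9 (−3.08 ± 0.51, limma adjusted p = 0.00261), Hoxc6 (−2.55 ± 0.49, limma adjusted p = 0.00541), Hoxb9 (−2.33 ± 0.45, limma adjusted p = 0.00565) and Hoxb7 (−2.44 ± 0.53, limma adjusted p = 0.00944) remained called with every setting and library left out. The NTM blastulae held no read of Hoxc9, Hoxc6, Hoxb7 or Hoxc8, which put these at least 127-fold, 80.1-fold, 49.5-fold and 112-fold below the MEF mean. Hoxc8 (−2.50 ± 0.65, limma adjusted p = 0.0209) lost its call without MEF replicate 3, any NTM blastula library or the filter, and Hoxd8 (−3.03 ± 0.97, limma adjusted p = 0.0465) without MEF replicate 1 or 2, any NTM blastula library or the filter, and with median-ratio scaling. The median over the 15 was −2.33 against −0.47 over all genes, and as the members were tested mainly because of their MEF level, a negative median was built in. In 1 fit over all 20 groups, 12 members were called at each of these stages, but the share of all genes called in that fit was not counted.

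Between NTC 1-cell embryos and CC, 6 members were tested and 3 were called, all higher in the embryo, against 29.3% of all genes called higher and 50% in either direction. They were Hoxa7, Hoxd13 and Hoxd9, which were at no more than 0.0279 RPKM in any CC library and so were tested because of their embryo level. Oocyte markers stood at 4160 to 4687 RPKM in these embryos, so the calls do not show whether a gene was switched on after transfer. Between NTC blastulae and CC, 3 members were tested and 0 were called by limma, with 0 at an unadjusted p under 0.05, against 24.2% of all genes called. Without CC replicate 1 the call of Hoxd8, lower in NTC blastulae, was gained.

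The member with the highest level in early embryos was Hoxa7, a central gene that acts in the thoracic region. In in vivo embryos it stood at 28.7, 23.4 and 33.9 RPKM at the 1-cell stage and at 29.6, 6.96 and 0.105 RPKM at the 2-cell stage. It stood at 0.582, 0.443 and 0.511 RPKM in in vivo 4-cell embryos and at no more than 0.0237 RPKM in any later in vivo library. At the 1-cell stage all 3 in vivo libraries were high, whereas at the 2-cell stage the third fell apart from the others.

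In NTC embryos Hoxa7 stood at 33.6, 27.7 and 38.9 RPKM at the 1-cell stage and at 9.01, 14.0 and 20.2 RPKM at the 2-cell stage. It stood at 0, 0 and 6.10 RPKM in NTC 4-cell embryos and at 2.69, 0 and 0 RPKM in NTC 8-cell embryos. In NTM embryos it stood at 6.07, 6.19 and 6.70 RPKM at the 1-cell stage and at 13.8, 12.5 and 17.6 RPKM at the 2-cell stage. From the 4-cell stage it was at 0 in the NTM libraries apart from 0.0356 RPKM in 1 of the 4-cell embryos. Thus Hoxa7 was above 0 in 18 of 18 early libraries and in 8 of 36 later ones, and NTM 1-cell embryos lay below all NTC and in vivo 1-cell embryos.

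Ordered by their means, the early groups ran from NTC 1-cell (33.4 ± 5.63 RPKM, SD, n = 3) and in vivo 1-cell (28.6 ± 5.26) through NTM 2-cell (14.6 ± 2.63), NTC 2-cell (14.4 ± 5.62) and in vivo 2-cell (12.2 ± 15.5) to NTM 1-cell (6.32 ± 0.336). Neighbours among the 1-cell NTC and in vivo groups, and among the 2-cell groups, differed by less than their spread. Hoxa7 made up 80.4% of the mean Hox sum in in vivo 1-cell embryos, 76.8% in NTC 1-cell and 64.7% in NTM 1-cell embryos, and 60.3%, 56.6% and 37.8% in the 2-cell embryos of the same types. In the donor cells it stood at 0.0279, 0 and 0.0110 RPKM in CC and 0.0165, 10.7 and 2.41 RPKM in MEF. The antisense gene Hoxaas3, whose reads could be counted with those of Hoxa7, was listed at 0 in all groups other than NTM 1-cell, where its mean was 0.10 RPKM.

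**Figure D4:**
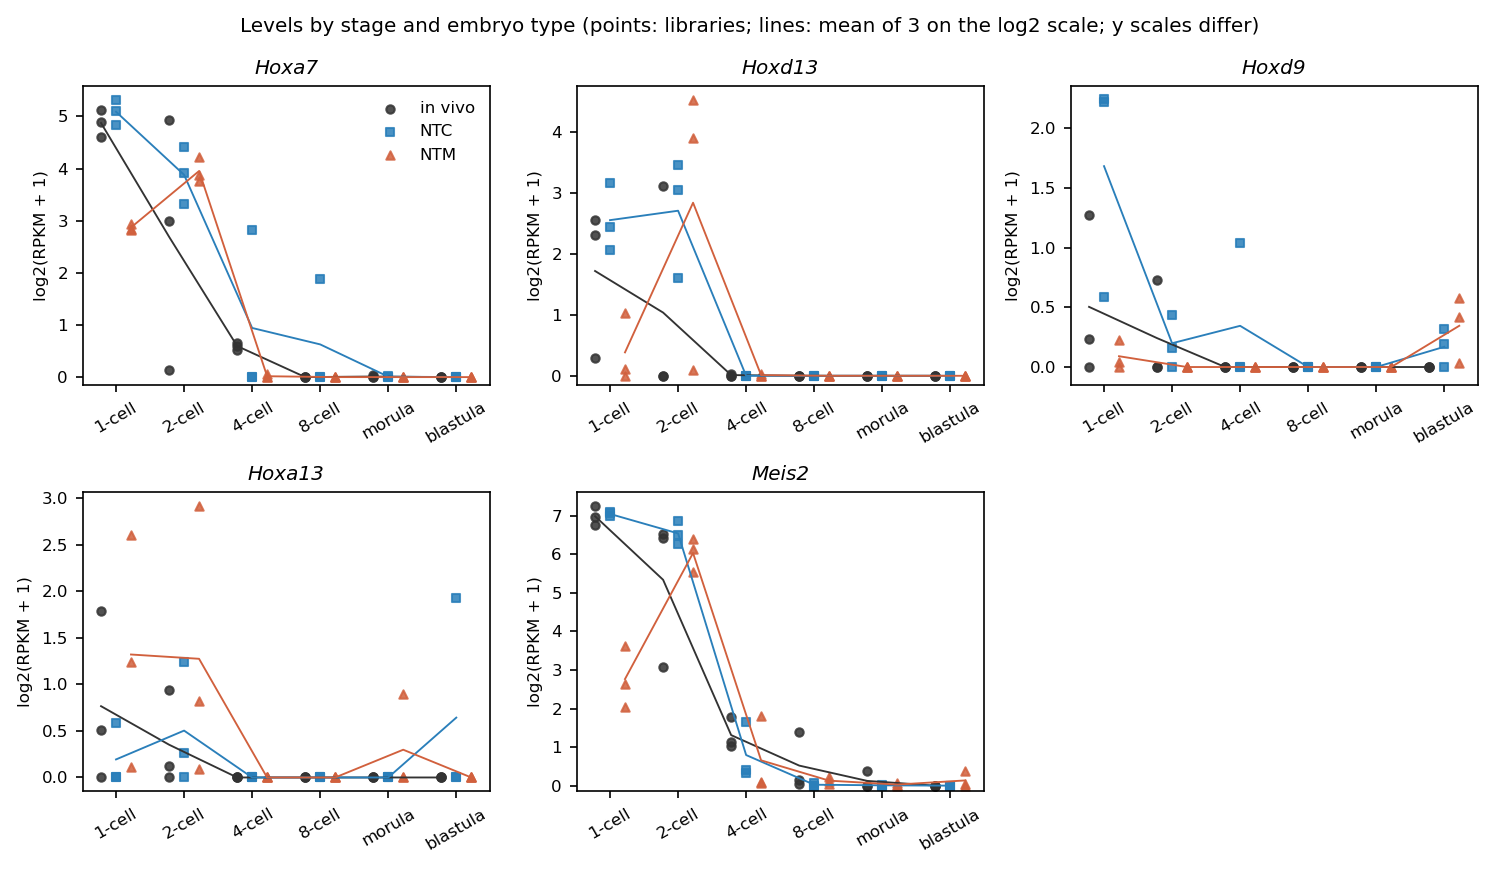
Levels of Hoxa7, Hoxd13, Hoxd9, Hoxa13 and the cofactor gene Meis2 at the 6 stages in in vivo, NTC and NTM embryos, as log2(RPKM + 1), with points for libraries, lines through the mean of 3 and a scale of its own in each panel. Hoxa7 and Meis2 are lower in NTM than in NTC and in vivo embryos at the 1-cell stage and overlap with them at the 2-cell stage.

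Hoxd13, the most posterior gene of its cluster and known for its role in digits and genitalia, was listed at 0 in all 6 donor libraries. It stood at 0.231, 3.94 and 4.88 RPKM in in vivo 1-cell embryos, 7.96, 3.19 and 4.42 in NTC 1-cell and 0.0853, 0 and 1.05 in NTM 1-cell embryos. At the 2-cell stage it stood at 7.66, 0 and 0 RPKM in vivo, 10.1, 2.05 and 7.30 in NTC and 22.1, 14.0 and 0.0650 in NTM. NTC and NTM 1-cell embryos did not overlap, the 2-cell groups all did, and no library from the 4-cell stage on exceeded 0.0247 RPKM.

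Hoxd9 stood at 0.179, 0 and 1.42 RPKM in in vivo 1-cell embryos, 3.66, 3.73 and 0.503 in NTC and 0, 0.0317 and 0.170 in NTM. At the 2-cell stage it stood at 0.119, 0.352 and 0 RPKM in NTC embryos. Again every NTC 1-cell library lay above every NTM one. Hoxd9 was read later in 1 NTC 4-cell embryo, at 1.05 RPKM, in 2 NTC blastulae, at 0.142 and 0.246 RPKM, and in NTM blastulae at 0.496, 0.0241 and 0.340 RPKM.

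Against the NTC 1-cell embryos, NTM 1-cell embryos were called lower for 3 of 5 members tested, against 14.2% of all genes called lower and 19.8% in either direction. Hoxa7 was lower by a log2 fold change of −2.22 ± 0.24 (limma adjusted p = 0.000588), a call that held with every setting and library left out. Hoxd13 was lower by −2.17 ± 0.44 (limma adjusted p = 0.00967), and the call was lost without replicate 1 or without replicate 3 of both groups. Hoxd9 was lower by −1.59 ± 0.49 (limma adjusted p = 0.0466), which was lost without replicate 1 or 2, with the replicate block and without the filter on low values. The median over the 5 members was −1.59 against −0.19 over all genes, and Hoxd9 and Hoxd13 were tested only because of their NTC level. The summed oocyte markers moved the other way, at 6016 to 6703 RPKM in NTM against 4160 to 4687 RPKM in NTC 1-cell embryos, and their part in the Hox difference was not tested.

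Against CC, which shares the NTC 1-cell libraries with that comparison, Hoxa7 was higher in NTC 1-cell embryos by 5.07 ± 0.25 (limma adjusted p = 4.01e-05) and Hoxd13 by 2.56 ± 0.35 (limma adjusted p = 0.00182), and both held with every library left out. Hoxd9 was higher by 1.68 ± 0.52 (limma adjusted p = 0.0380), and its call was lost without NTC replicate 1 or 2 or any CC library, with the replicate block and without the filter. At the other 5 stages NTM and NTC embryos differed in 0 members called by limma and in 0 with an unadjusted p under 0.05. The share of all genes called there was 0% at the 2-cell, 4-cell, morula and blastula stages and 0.0507% at the 8-cell stage. At the 2-cell stage the difference of Hoxa7 was 0.07 ± 0.54 (limma adjusted p = 0.979) and that of Hoxd13 0.13 ± 1.07.

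Compared with in vivo embryos, 0 members were called by limma over the 12 comparisons of NTC or NTM embryos at 6 stages, and 3 had an unadjusted p under 0.05. They were 1 of 4 tested in NTM 1-cell embryos, 1 of 5 in NTM 2-cell embryos and 1 of 1 in NTM blastulae. Such a p was reached there by 1525 of 10307, 1067 of 11345 and 2458 of 9380 genes. So few were tested that the 3 are no result about the members as a group. NTM 1-cell embryos had less Hoxa7 than in vivo ones by −2.004 ± 0.40, just beyond the threshold (limma adjusted p = 0.0536), and without replicate 1 the difference was called. NTC 1-cell embryos differed from in vivo ones by 0.22 ± 0.32 in Hoxa7 (limma adjusted p = 0.707) and 0.83 ± 0.68 in Hoxd13 (limma adjusted p = 0.482). The NTC and NTM comparisons share their in vivo libraries.

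The share of all genes called against in vivo embryos was low at most stages. For NTC it was 1.16% at the 1-cell, 0.152% at the 2-cell, 27.8% at the 4-cell, 1.46% at the 8-cell, 0.0321% at the morula and 9.46% at the blastula stage. For NTM it was 1.28%, 0.141%, 21.1%, 2.02%, 0.168% and 0.746% at the same stages. Between 0 and 5 members reached the tested level in any of them.

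The fall of Hoxa7 after the first stages was tested between successive stages within each embryo type. From the NTC 1-cell to the NTC 2-cell stage Hoxa7 fell by 1.21 on the log2 scale (SE 0.34, limma adjusted p = 0.0475), 1 of 5 members tested, against 8.95% of all genes called lower and 13.5% in either direction. This call was lost under 8 of 9 alternatives, each left-out replicate among them, and the other, no fold threshold, cannot lose a call. From the NTC 2-cell to the 4-cell stage Hoxa7 fell by 2.94 (SE 0.80, limma adjusted p = 0.0207) and Hoxd13 by 2.71 (SE 0.59, limma adjusted p = 0.00789), 2 of 3 tested, against 20.1% of genes called lower and 36.6% in either direction. The first was lost without replicate 1 or 2 or without the filter, and the second without replicate 1 or 3. The members tested at this step entered mainly through their 2-cell level, so a fall was built in and the count is no result about them as a group.

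In NTM embryos the change from the 1-cell to the 2-cell stage went the other way, with Hoxa7 higher at the 2-cell stage in all 3 libraries by 1.08 ± 0.43 (limma adjusted p = 0.158). Of the 4 members tested, 0 were called by limma, against 9.4% of all 10920 genes. An unadjusted p under 0.05 was reached by 2782 of the 10920 genes and by 2 of the 4 members. From the NTM 2-cell to the 4-cell stage Hoxa7 fell by 3.94 (SE 0.59, limma adjusted p = 0.00229), a call that held with every library left out. In all, 2 of 5 members tested were called lower there, against 14.3% of all genes called lower and 26.4% in either direction, and without replicate 1, 2 or 3, or without the filter, the other call was lost. Here too the members were tested mainly because of their 2-cell level, so the count is no result about them as a group.

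In in vivo embryos 0 members were called by limma at any step, and 0 had an unadjusted p under 0.05. From the in vivo 1-cell to the 2-cell stage Hoxa7 differed by −2.18 ± 1.01 (limma adjusted p = 0.820), where 0% of all genes were called. From the in vivo 2-cell to the 4-cell stage it differed by −2.10 ± 1.08 (limma adjusted p = 0.140), where 52.2% of all genes were called. The third in vivo 2-cell library had 0.105 RPKM of Hoxa7, below every in vivo 4-cell library, and 7.42 RPKM of Meis2 against 84.2 and 91.7 RPKM in the other two.

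At the later steps 0 members were called by limma in any type, of 0 to 2 tested at each, and 1 had an unadjusted p under 0.05. It was the only member tested from the NTM morula to the NTM blastula stage, where 2276 of 9823 genes reached such a p. The share of all genes called was 43.7%, 0.0116% and 0.801% for in vivo embryos from the 4-cell to the 8-cell, from the 8-cell to the morula and from the morula to the blastula stage. For NTC it was 0.0564%, 0% and 7.16%, and for NTM 0.363%, 0% and 4.22%.

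Whether the step itself differed between embryo types was tested as an interaction, chosen after the data had been seen. The 1-cell to 2-cell change of Hoxa7 was higher in NTM than in NTC embryos by 2.29 ± 0.51 (limma adjusted p = 0.0378), 1 of 5 members tested, against 1.24% of all genes higher and 1.99% in either direction. The call was lost without any 1 of the 3 replicates, with the replicate block and in 1 fit over all 20 groups. In the other 14 such comparisons 0 members were called by limma and 4 had an unadjusted p under 0.05, all of them NTM against in vivo. They were 2 of 5 tested from 1-cell to 2-cell, 1 of 5 from 2-cell to 4-cell and 1 of 1 from morula to blastula. Such a p was reached there by 1439 of 11278, 3116 of 13062 and 1728 of 9583 genes. So few were tested that the 4 are no result about the members as a group. For NTC against in vivo, the share of all genes called over the 5 successive steps was 0.0256%, 14.3%, 19.5%, 0% and 0.236%. For NTM against in vivo it was 0.204%, 9.91%, 18.7%, 0.0335% and 0.647%, and for NTM against NTC after the first step 0.00802%, 0%, 0% and 0%.

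Hoxa13, which acts with Hoxd13 in the distal limb, was at 0 in all donor libraries. It stood at 0, 0.425 and 2.45 RPKM in in vivo 1-cell embryos, 5.09, 0.0821 and 1.37 in NTM 1-cell embryos and 0.764, 6.56 and 0.0653 in NTM 2-cell embryos. The values ran over the same range in both NTM groups. It was above 0 in 13 of 18 early libraries and in 2 of 36 later ones, the higher being an NTC blastula at 2.81 RPKM.

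The other members with a group mean of 1 RPKM or more in embryos owed it mostly to 1 library. Hoxb4, a cervical-level gene also known from blood stem cells, stood at 4.78, 0.384 and 0.107 RPKM in in vivo 1-cell embryos, 0.324, 0.105 and 0.481 in MEF and 0, 0 and 0.840 in CC. Hoxb1, which patterns the hindbrain, stood at 0.0463, 6.51 and 0 RPKM in in vivo 2-cell embryos and reached 1.23 RPKM in 1 NTM morula. In neither group did a second library reach 1 RPKM.

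Hoxd8 stood at 0.0574, 4.35 and 0 RPKM in in vivo morulae and at 0.0203, 0 and 0.247 in NTM blastulae. Hoxc8 stood at 3.31, 0 and 0 RPKM in NTM 4-cell embryos. Hoxb9 stood at 0.186, 0.301 and 2.91 RPKM in NTC 8-cell embryos and at 0, 0 and 2.21 in NTM 4-cell embryos. Over the embryos there were 25 pairs of a member and a group with a mean of 1 RPKM or more, and in 8 of them 90% or more of the sum came from 1 library.

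Of the remaining members, Hoxb2, Hoxb8 and Hoxc11 were read in MEF alone, with MEF means of 0.771, 0.144 and 0.0128 RPKM, and Hoxa2, Hoxa4, Hoxa5, Hoxb3, Hoxb13, Hoxd10, Hoxd11 and Hoxd12 in embryos alone. Hoxa5 reached 2.63 RPKM and Hoxb13 reached 2.49 RPKM, each in 1 embryo. Hoxa9, Hoxb5, Hoxb6, Hoxc4, Hoxc5 and Hoxd1 were read in both MEF and embryos, with MEF means from 0.00291 RPKM (Hoxc5) to 2.37 RPKM (Hoxd1) and no embryo group mean of 1 RPKM. In embryo libraries 3 reads of a member were worth a median of 0.0847 RPKM, so the lowest values of these genes rest on few reads. Values nearer 1 RPKM rest on more, such as 0.976 RPKM of Hoxd10, 33 reads in 1 in vivo 2-cell embryo. A value of 0 does not show that the gene is silent.

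Meis2, a homeodomain cofactor of Hox proteins, is given by library because it moved with Hoxa7 over the early stages, a choice made after its values were seen. It stood at 125.5 to 135.7 RPKM in NTC 1-cell embryos, 107.6 to 150.5 in in vivo and 3.11 to 11.3 in NTM 1-cell embryos, and the last group lay far below the others. At the 2-cell stage NTM embryos had 45.9 to 83.8 RPKM and NTC embryos 76.2 to 114.7, with overlap, and at the 4-cell stage the group means were 0.910 for NTC, 0.878 for NTM and 1.55 RPKM for in vivo embryos. NTM 1-cell embryos were lower in Meis2 than NTC by −4.28 (limma adjusted p = 0.000224) and than in vivo ones by −4.22 (limma adjusted p = 0.00499). Its 1-cell to 2-cell change was higher in NTM than in NTC by 3.77 (limma adjusted p = 0.00341). The donor means of Meis2 were 1.81 RPKM in CC and 3.83 in MEF.

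The other genes of the Hox pathway are given by counts, to be read against the share of all genes called, which was 19.8% for NTM against NTC 1-cell embryos, 55.2% for NTM 1-cell embryos against MEF, 30.8% for NTM blastulae against MEF and 6.29% for MEF against CC. Between NTM and NTC 1-cell embryos, 0 of 5 cofactor genes tested were higher and 2 lower, of 9 Polycomb PRC2 genes 0 were higher and 2 lower, with Phf1 the most lowered at −5.95, of 5 PRC1 genes 0 were called, and of 10 Trithorax/MLL genes 1 was higher and 1 lower. Between NTM 1-cell embryos and MEF, 5 of 8 PRC2 genes were higher and 0 lower, 5 of 8 PRC1 genes were higher and 3 lower, and 6 of 10 Trithorax/MLL genes were higher and 4 lower. Of 8 genes that act upstream of the clusters, 1 was higher, the retinoic acid synthesis gene Aldh1a2 (4.30), and 3 were lower, led by the retinoic acid receptor gene Rarg (−4.15). In NTM blastulae 2 of 8 upstream genes were higher than in MEF, and 2 lower, the former led by Cdx2 (6.49), a trophectoderm factor that also acts on Hox genes, while Cdx2 was at 0 in all donor libraries.

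The genes beside the clusters are given in the same way. Between NTM 1-cell embryos and MEF, 3 of 9 neighbours tested were higher and 3 lower, with Mtx2, which lies next to the Hoxd cluster, the most lowered at −6.03. Between NTM blastulae and MEF, 0 of 9 were higher and 1 was lower, Calcoco1 (−4.74), beside the Hoxc cluster. Between MEF and CC the only one of the pathway lists with calls was that of other homeobox and T-box genes of the body plan, with 3 of 5 tested higher in MEF: Prrx1 (4.88), Tbx15 (4.58) and Prrx2 (4.31).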

How the data were processed

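Paired-end RNA-seq libraries were made from single embryos and donor cells by the authors, with tailing of the first-strand cDNA and PCR amplification. The authors deposited 1 table of RPKM values per gene for all 60 libraries, normalised to exon length and mapped reads. The labels name Bowtie 0.12.2 and the mouse build mm8, the methods name other aligners and counting by gene, and strandedness is not given in the sources used here. Gene names came from the table's Ensembl identifiers through GENCODE M21.

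All groups follow the labels. Whole reads were recovered at GENCODE exon lengths (tolerance 0.05 of a read) for 20726 of 26626 genes and for all 33 Hox genes with a value. Tests were run with limma 3.58.1 in R 4.3.3 (eBayes with a trend) on log2(RPKM + 1), with each pair of groups fitted alone, a filter of a mean RPKM of 0.5 and Benjamini-Hochberg adjustment over all genes tested. Fold changes on this scale understate those of low genes. The script was tested on simulated data. Values in every sample are given for members with a mean of 1 RPKM in any embryo group, the highest in each donor and those called. The members and lists were chosen with earlier results of these data known. Replicate numbers were checked for pairing and did not pair the libraries. Alternatives were a replicate block, another pseudocount, no filter, median-ratio scaling, no fold threshold, 1 fit of the 20 groups together and leaving out libraries. The values of 1 Hox gene are not reported here by name and enter only counts and sums.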

Additional observations from a re-analysis of the deposited data

Results flagged for a closer look

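The change of Hoxa7 from the 1-cell to the 2-cell stage differed between NTM and NTC embryos. Hoxa7 stood higher at the 2-cell than at the 1-cell stage in NTM embryos and lower in NTC embryos, and the difference of the changes was 2.29 on the log2 scale (SE 0.51, limma adjusted p = 0.0378). A test of the difference itself, added after the data were seen, picked it out. It was no longer called with a replicate block, in 1 fit over all 20 groups, or without replicate 1, 2 or 3, with adjusted p over the alternatives from 0.0340 to 0.272. The NTM and NTC 2-cell libraries overlapped, so the difference rests on the 1-cell stage. Groups of 3 libraries were too small for a test of single outlying libraries.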

How the results depend on the processing

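No called member changed direction under any alternative. Of 24 calls of single members, the alternatives other than leaving out libraries kept 127 results and lost 17, and leaving out libraries kept 81 and lost 36. Of the 127, 24 came from dropping the fold threshold, which cannot lose a call and so is no support. In 1 fit over all 20 groups, more members were called: 11 for MEF against CC, 12 for NTM 1-cell against MEF, 1 for NTC blastula against CC, 12 for NTM blastula against MEF, 4 over the comparisons of NT with in vivo embryos, 11 over successive stages and 3 over the changes compared between embryo types. With a pseudocount of 0.1, and with median-ratio scaling, 1 member each was called against in vivo embryos, median-ratio scaling gave 2 calls for the changes between types, and without the filter on low values 2 members were called over successive stages. The share of all genes called under these alternatives was not counted, so the changed counts are no result about the members. The cause was not tested. Leaving out libraries gave 0 to 2 calls for MEF against CC, 2 to 3 for NTC 1-cell against CC, 5 to 8 for NTM 1-cell against MEF, 0 to 1 for NTC blastula against CC, 4 to 7 for NTM blastula against MEF, 0 to 1 against in vivo embryos, 1 to 2 for NTM against NTC, 1 to 4 over successive stages and 0 to 0 for the changes between types.

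Replicate numbers shared by groups did not pair the libraries: in 0 of 38 comparisons did every pair correlate above 0.1 (pairs from −0.181 to 0.119), and in 2 every library correlated best with its own number. With the replicate block, 0 members were called for MEF against CC, 2 for NTC 1-cell against CC, 8 for NTM 1-cell and 8 for NTM blastula against MEF, 2 for NTM against NTC, 5 over successive stages and 0 for the changes between types. Depth limits low values: 3 reads of a Hox gene stood for up to 0.648 RPKM in the embryos, with a median of 0.0847 RPKM.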
